A study of Schmidtea polychroa with 132 samples.

Results

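Embryos of the freshwater planarian Schmidtea polychroa labelled stage 7 were set against those labelled stage 6, the stage before it. All libraries with these stage labels were taken, 16 of stage 7 and 16 of stage 6, which is 32 of 132 libraries in the series. For the course before and after this step, 15 libraries of stage 8, 10 of stage 4, 13 of stage 5, 57 of stages 1 to 3 and 4 labelled yolk were used. All embryos came from 1 laboratory population kept at 20 °C, and no genotype or treatment separates the groups. Each embryo library is 1 embryo, collected singly from an opened capsule, staged and frozen. The labels name no capsule of origin, so embryos that developed side by side cannot be recognised and p-values weigh only the spread between these libraries.

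A planarian egg capsule holds embryos together with free yolk cells made by the parent, and the young embryo swallows those cells through a temporary pharynx. The definitive organs, among them the pharynx, gut, nervous system and eyes of the juvenile, are built in the later part of development. RNA read from an embryo can thus come from the embryo's own cells or from yolk that it holds. The transcript models of the table carry numbers and no gene names, so the staging could not be compared with marker genes and transcripts are given by ID. In a whole embryo, fewer cells of a type and less RNA per cell cannot be told apart.

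Each library was made by CEL-Seq, which barcodes the RNA of a sample and counts reads near the 3′ end of transcripts, and the counts are those deposited by the authors. Transcript counts per library ran from 239057 to 1623149 in stage 7 (median 775003.5) and from 101952 to 1068561 in stage 6 (median 523737.5). Levels below are CPM, counts per 1e+06 transcript counts, with library totals corrected by TMM, edgeR's factor for differences in composition. A transcript was called where edgeR's quasi-likelihood test gave a Benjamini-Hochberg adjusted p under 0.05 over all transcripts tested.

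The libraries of both stages also differed in their spike-ins and in their share of reads that failed to align. The proportions among the synthetic spike-in RNAs placed all 16 stage 7 libraries in 1 set with all 15 of stage 8. All 16 stage 6 libraries lay in another set with stages 4 and 5. No library of yolk or of a stage before stage 4 lay in the set of stage 6. Of the yolk libraries, 1 lay in the set of stage 7. The other yolk libraries and those of the stages before stage 4 were split over the remaining sets. Of 43 spike-ins tested, 12 were higher and 13 lower in stage 7 (edgeR), with a median absolute log2 change of 0.45 and a largest one of 1.73. Between 32.4% and 45.6% of reads failed to align in stage 7, against 56.5% to 69.3% in stage 6, with no overlap. The origin of those reads was not tested. Stage and library set cannot be told apart in this step.

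Of the tested transcripts, 51.1% differed between the stages, and the largest changes were far beyond those of the spike-ins. The test covered 7703 of 15124 transcript models, and 7421 did not pass the filter on low counts. Of those tested, 1968 rose and 1972 fell in stage 7, 25.5% and 25.6%. The median log2 change was 1.56 among the rises and -1.34 among the falls, so that most called changes were no larger than the largest spike-in change. Changes beyond 1.73 were seen in 834 rises and 571 falls. When edgeR was asked for changes significantly beyond that size, a test chosen after seeing the data, 345 rises and 199 falls passed. Changes of at least 32-fold were seen in 45 rises and 19 falls.

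**Figure D1:**
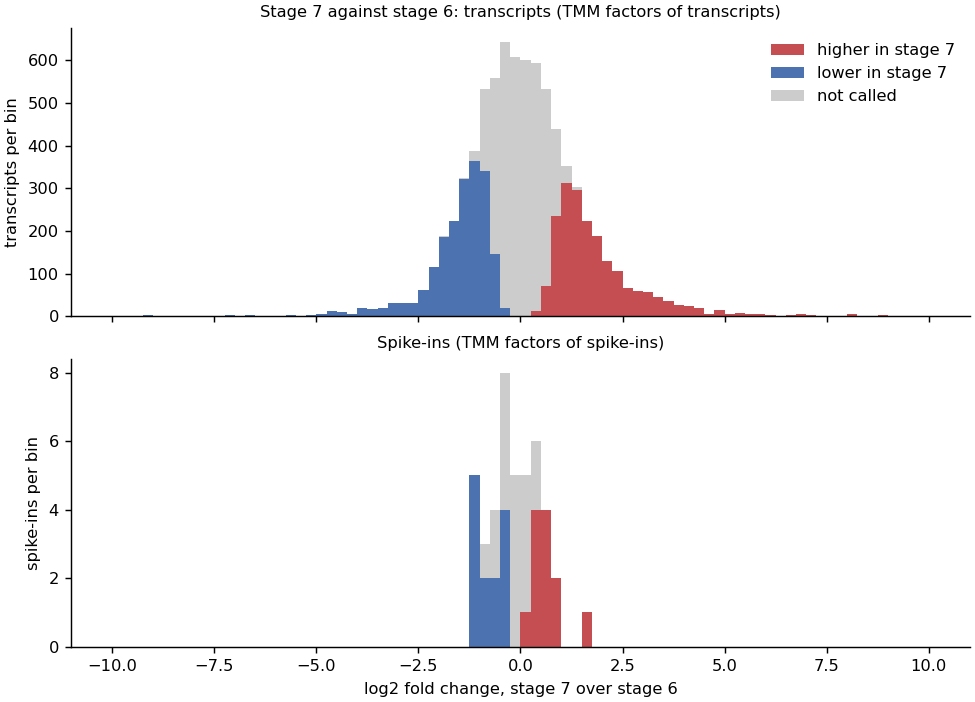
Number of transcripts (top) and of spike-ins (bottom) by log2 fold change of stage 7 over stage 6, in bins coloured by edgeR's call. The 43 spike-ins lie between -1.25 and 1.73, and the transcripts between -9.62 and 9.56.

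The balance of rises and falls depended on the scale. With size factors by RLE, which sets the median ratio to a common value, 2643 rose and 1379 fell, so that 65.7% of calls were rises, against 49.9% with TMM. With spike-in totals as library sizes the median log2 change of all transcripts was 1.61 in place of 0.01, and 5524 transcripts were higher and 153 lower in stage 7. Of the 1972 falls, 153 remained lower on that scale, 313 were higher and 1506 were not called. Rises and falls below are therefore changes in a transcript's share of the RNA, and only where it is said are they also changes per spike-in.

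The ratio behind this shift was a measured difference between the embryos' libraries. On the log2 scale, transcript counts per spike-in count ran from 3.12 to 5.44 in stage 7 and from 1.64 to 4.60 in stage 6. The means were 4.73 ± 0.62 in stage 7 and 3.06 ± 0.88 in stage 6 (SD, n = 16 each), a 3.17-fold difference (permutation test, two-sided, p = 1e-05, the smallest that 100000 resamples can give, Benjamini-Hochberg adjusted p = 2e-05 over 2 tests). All 16 stage 7 libraries lay above the stage 6 mean, and 11 lay above every stage 6 library. The ratio measures RNA per embryo only if every library received equal spike-in RNA, which was not tested.

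More kinds of transcript were found in stage 7 at equal depth. After each library was thinned to 101952 counts, stage 7 libraries held from 8983 to 10997 transcripts with at least 1 count (median 10369.5), and stage 6 libraries from 5559 to 9935 (median 9003). On average 1761 more were detected in stage 7 (permutation test, two-sided, p = 2e-05, adjusted over 2 tests by Benjamini-Hochberg p = 2e-05). Here 13 of 16 stage 7 libraries exceeded every stage 6 library. Without thinning, the medians were 13215 in stage 7 and 11610 in stage 6. The part of the library sets in this difference cannot be told apart from that of the stages.

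**Figure D2:**
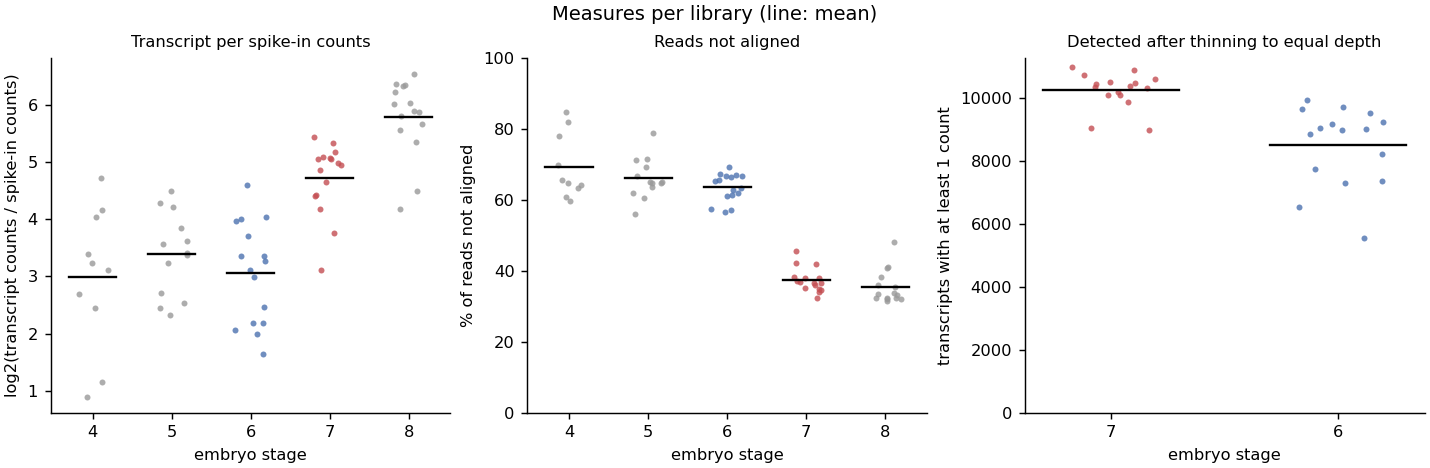
Transcript counts per spike-in count (left, log2 scale) and reads not aligned (middle, percent) per library in stages 4 to 8, and transcripts detected at equal depth in stages 7 and 6 (right), with a line at each mean. Stage 7 lies with stage 8 in the share of reads not aligned, with means of 37.4% and 35.5%, while stages 4 to 6 have means between 63.5% and 69.3%.

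Transcripts that were switched on were taken as rises with a mean of at least 10 CPM in stage 7 and under 1 CPM in stage 6. There were 25 of them, 0.325% of the transcripts tested, with a median level of 65.4 CPM in stage 7 and 0.66 CPM in stage 6. The values in stages 7 and 6 chose these transcripts, so those values describe them and test nothing. In 22 of the 25, every stage 7 library held at least 1 count, and none was seen in more than 5 of the 16 stage 6 libraries. For 19 of the 25, every stage 7 value lay above every stage 6 value, as it did for 203 of all rises, 2.64% of the transcripts tested. The member nearest to the limit inside it had 51.9 CPM in stage 7 and 0.97 CPM in stage 6, and the nearest outside it had 60.8 CPM in stage 7 and 1.01 CPM in stage 6.

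The filter on low counts set the size of this group. edgeR's default filter asks for counts in many libraries, which a transcript present in 1 stage alone meets only at a fairly high level. With no filter, 24.8% of transcripts rose and 18.1% fell, and the level rule held for 302 transcripts, 2.00% of those tested. With a minimum of 10 counts in 50% of the libraries of a stage it held for 231. All 25 were among both. Among the 25, 2 pairs of models had counts equal within sampling noise and may share reads. The same rule turned the other way, for transcripts switched off, held for 5 with the default filter, 72 with none and 18 with the minimum of 10 counts.

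FW_v1_tr_05743 had the highest stage 7 level of those switched on. It ranged from 35.2 to 348 CPM in stage 7 (median 239) and from 0 to 4.84 CPM in stage 6 (median 0). The groups did not overlap, and 11 of the 16 stage 6 libraries had no count of it. The mean was 228 ± 85.5 CPM in stage 7 and 0.75 ± 1.4 CPM in stage 6 (SD, n = 16 each). The fitted log2 difference was 8.01 (SE 0.42). These values chose the transcript, so they describe it and test nothing. It was not called between stage 8 and stage 7, at 328 ± 123 CPM in stage 8 (SD, n = 15) and a log2 difference of 0.59 with SE 0.22 (edgeR, adjusted p = 0.106). No count of it was found in the 4 yolk libraries, where 3 counts over the group would be 2.66 CPM.

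FW_v1_tr_06046 was switched on more unevenly among stage 7 embryos. Its level ran from 34.0 to 1020 CPM in stage 7 (median 138) and from 0 to 4.57 CPM in stage 6 (median 0), again without overlap. Stage 6 held 2 counts of it in all, so that the count per library total was 799-fold higher in stage 7, with an exact 95% interval from 221 to 6600 that covers counting error only. Stage 3 held 24 counts of it, in 7 of 22 libraries and at up to 41.7 CPM. In stage 8 it ran from 111 to 2780 CPM (median 1606), and 14 of 15 stage 8 libraries were above the stage 7 median. The mean was 1516 ± 763 CPM in stage 8 (SD, n = 15) and 226 ± 250.5 CPM in stage 7 (SD, n = 16), a log2 difference of 2.79 with SE 0.42 (edgeR, adjusted p = 4.83e-05).

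Stage 8 is the next and last stage of the series, and whether transcripts stayed on was read from its libraries, which took no part in choosing them. Of the 25, 24 had at least 10 CPM in stage 8 and at least 50% of their stage 7 mean. This held for 95.2% of all tested transcripts. In the test of stage 8 against stage 7, which shares the stage 7 libraries with the choice of members, 8 of the 25 rose further (32.0%, against 4.66% of all transcripts tested there) and 0 fell, where 1.55% of all fell. No member fell at an unadjusted p under 0.05 in edgeR or was called lower by DESeq2. The 8 further rises had log2 differences from 0.80 to 3.32, of which 6 were above 2, and the other 17 lay between -0.94 and 0.91. Of 32 spike-ins tested between stages 8 and 7, edgeR called 0, with 2 at an unadjusted p under 0.05, and DESeq2 called 0.

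FW_v1_tr_04789 had the largest further rise. Its level ran from 13.9 to 1429 CPM in stage 8 (median 855) and from 5.83 to 312 CPM in stage 7 (median 50.4). The ranges overlap, but 14 of 15 stage 8 libraries were above the stage 7 median. The log2 difference of stage 8 over stage 7 was 3.32 (SE 0.45). FW_v1_tr_04789 was named for this difference, which describes it and tests nothing. In stage 6 it had 2 counts in all, and in yolk and stage 4 none. Stage 3 held 25 counts of it, in 9 of 22 libraries and at up to 20.9 CPM.

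Summed over the 25, the level varied widely among embryos of a stage. The sum ran from 1309 to 5397 CPM in stage 7 (median 2103) and from 0 to 72.6 CPM in stage 6 (median 8.99). In stage 8 it ran from 1475 to 10220 CPM (median 7085). Within stage 6, replicates 6 and 12 stood highest, with sums of 72.6 and 39.4 CPM and with 10 and 15 of the 25 detected, while the median library had 2. The other 14 stage 6 libraries had sums up to 18.6 CPM. In stages 3, 4 and 5 up to 10, 9 and 10 of the 25 were detected in a library. Of the 25, 13 averaged under 1 CPM in yolk and in each of stages 1 to 3 (52.0%, against 4.00% of all tested). The other 12 reached 1 CPM in yolk or in a stage from 1 to 3, and 0 averaged at least 10 CPM in yolk.

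**Figure D3:**
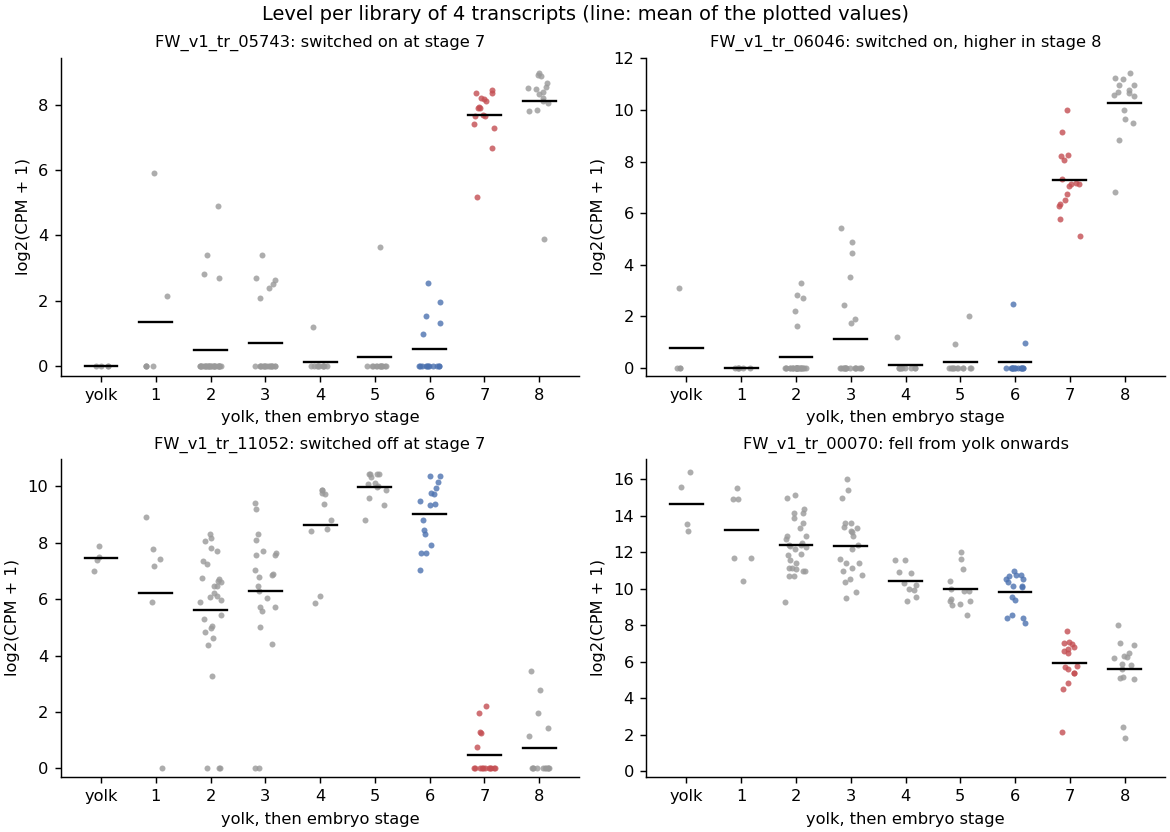
Level per library, as log2(CPM + 1), of FW_v1_tr_05743, FW_v1_tr_06046, FW_v1_tr_11052 and FW_v1_tr_00070 in yolk and in stages 1 to 8, with a line at the mean of the plotted values and stages 7 and 6 in colour. The first pair is at or near 0 in most libraries before stage 7 and high in stages 7 and 8, FW_v1_tr_11052 is present up to stage 6 and near 0 afterwards, and FW_v1_tr_00070 declines from yolk to stage 8.

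The wider group of 302 was switched on at lower levels. Its median level was 0.29 CPM at stage 5, 0.30 at stage 6, 17.8 at stage 7 and 27.1 at stage 8. Of the 302, 271 (89.7%) kept at least 10 CPM and 50% of the stage 7 mean in stage 8, close to the 90.2% of all 10256 transcripts with at least 10 CPM in stage 7. Between stages 8 and 7, 68 rose and 1 fell with no filter, where 2.63% and 2.29% of all transcripts tested did. In stage 8 against stage 5, whose libraries were not used to choose them, 289 of 302 were higher and 0 lower, where 27.1% and 22.8% of all transcripts tested were. In yolk 275 of the 302 averaged under 1 CPM, and 218 did so in yolk and in each of stages 1 to 3.

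The full list of 1968 rises also remained high. In stage 8, 1937 (98.4%) kept at least 10 CPM and 50% of their stage 7 mean, near the 95.2% of all tested transcripts. The median ratio of the stage 8 to the stage 7 mean was 0.98. Against stage 7, 148 of the 1968 rose further in stage 8 (7.52%) and 33 fell (1.68%). Of the 7703 transcripts tested between stages 7 and 6, 3.58% and 1.86% of those tested again rose and fell. Together the rises took 11.9% ± 3.54 of transcript counts at stage 6, 37.4% ± 1.72 at stage 7 (SD, n = 16 each) and 39.5% ± 1.35 at stage 8 (n = 15).

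Stage 8 against stage 5 gave the same directions in libraries that neither stage 7 nor stage 6 contributed to. Of the 1968 rises, 1828 were tested there, and 1528 were higher in stage 8 (83.6%, where 30.6% of all tested transcripts were higher) and 3 lower. Of the 1972 falls, 1905 were tested, and 1566 were lower in stage 8 (82.2%, where 27.5% of all were lower) and 3 higher. Among the 3763 transcripts not called between stages 7 and 6, 16.6% of those tested were higher and 14.0% lower. With no filter, where every member could be tested, 1583 of the 1968 rises were higher and 1597 of the 1972 falls lower. Of transcripts tested in both comparisons, 29.3% were higher and 28.5% lower in stage 8. Switched-on and switched-off transcripts pass the filter here only through the stage where they are high, so their calls test nothing. They remain within the counts above, as 23 of the 1828 rises and 5 of the 1905 falls tested. This comparison crosses the same change of library set, and 14 of its 32 spike-ins differed as well, by at most 1.28 on the log2 scale.

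Most rises had some level before stage 7. The median level of the 1968 was 5.45 CPM in yolk and 12.6 at stage 4. It was 19.4 CPM at stages 5 and 6, then 71.3 at stage 7 and 70.9 at stage 8. In yolk 816 (41.5%) averaged at least 10 CPM, against 53.8% of all tested transcripts. There were 230 (11.7%) under 1 CPM in yolk and in each of stages 1 to 3, against 4.00% of all tested. Of 1363 rises tested between stages 4 and 5 and yolk, 501 were higher in the embryos (36.8%) and 183 lower (13.4%). Of all transcripts tested there, 41.3% were higher and 19.4% lower, and of those also tested between stages 7 and 6, 50.1% and 12.9%. Those 183 were lower in stages 4 and 5 than in yolk and higher in stage 7 than in stage 6. Their share of 13.4% was close to the 12.9%, so it does not set the rises apart.

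**Figure D4:**
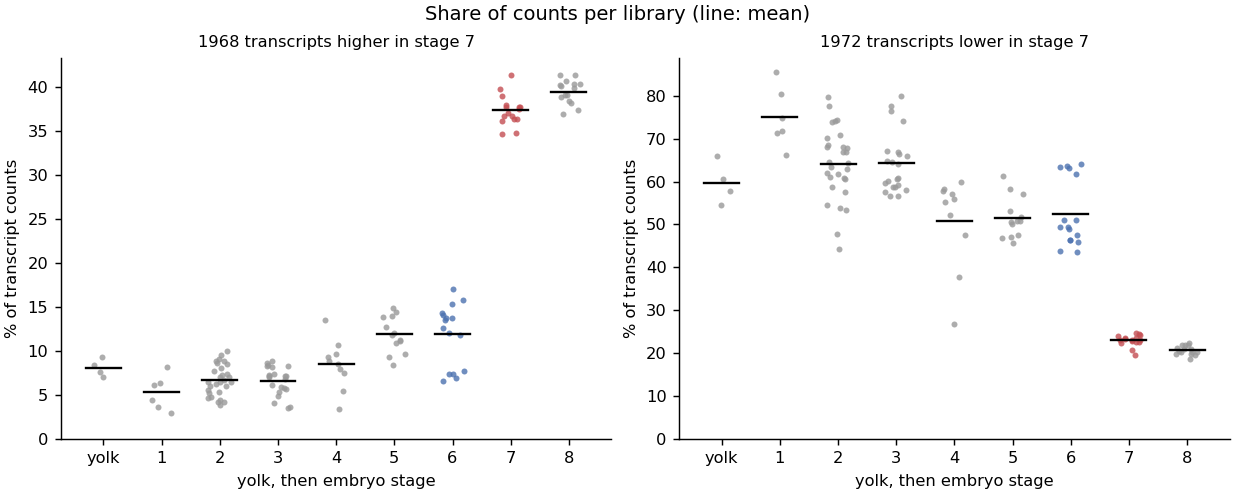
Share of each library's transcript counts, in percent, taken by the 1968 transcripts that rose (left) and the 1972 that fell (right) in stage 7 against stage 6, in yolk and stages 1 to 8, with a line at the mean and stages 7 and 6 in colour. The shares of stages 7 and 6 were used to choose the transcripts, and those of stage 8 (39.5% and 20.7% on average) lie close to stage 7.

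Transcripts switched off were fewer, with 5 at no less than 10 CPM on average in stage 6 and under 1 CPM in stage 7, 0.0649% of those tested. Their stage 6 means ran from 137 to 647 CPM and their stage 7 means from 0.11 to 0.64 CPM. None was seen in more than 5 of 16 stage 7 libraries, and 4 were seen in all 16 stage 6 libraries. For 3 of them the values of the stages did not overlap, as for 120 of all falls, 1.56% of the transcripts tested. All 5 were also lower with spike-in totals as library sizes. Their stage 8 means were between 0 and 1.42 CPM, so none returned to its stage 6 level. One of the 5 also counts among the 210 transcripts taken as high in the library labelled protist, through 1 count there.

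FW_v1_tr_11052 had the highest stage 6 level of the 5. It ran from 0 to 3.67 CPM in stage 7 (median 0) and from 130 to 1326 CPM in stage 6 (median 656), and stage 7 libraries held 10 counts of it in all. The groups were far apart, with 0.63 ± 1.16 CPM in stage 7 and 647 ± 401 CPM in stage 6 (SD, n = 16 each). The fitted log2 difference was -9.62 with SE 0.48. FW_v1_tr_01793, next in level, had a log2 difference of -9.40 with SE 0.49. It ran from 0 to 4.59 CPM in stage 7 and from 168 to 1307 CPM in stage 6. Both were chosen by these values, which describe them and test nothing. Counts of both models were equal within sampling noise over all libraries, so they may count the same reads and stand for 1 transcript.

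This pair was present from yolk and peaked in the middle stages. FW_v1_tr_11052 averaged 177 ± 44.3 CPM in yolk (SD, n = 4), 552 ± 344 at stage 4 (n = 10) and 1066 ± 304 at the fifth stage (n = 13), before the 647 of stage 6. In stages 4 and 5 together it was at 842 ± 408 CPM (SD, n = 23), above yolk by 1.96 on the log2 scale (SE 0.53, edgeR adjusted p = 0.00215). Of 23 libraries of stages 4 and 5, 21 lay above the yolk median. The 3 others averaged at most 1.37 CPM in yolk but 9.06 to 128 CPM in stage 2 and 24.7 to 143 CPM in stage 3. None of the 5 was thus under 1 CPM in yolk and in each of stages 1 to 3.

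Without the filter, the 72 switched-off transcripts were of mixed origin. In yolk 35 averaged at least 10 CPM, 36 were intermediate, and 1 was under 1 CPM in yolk and in each of stages 1 to 3. In stages 4 and 5 against yolk, fitted with no filter, 18 were higher and 27 lower, where 25.5% and 16.8% of all were. In stage 8, 55 of the 72 still averaged under 1 CPM. Against stage 5, 65 of the 72 were lower in stage 8 and 0 higher, where 22.8% and 27.1% of all transcripts were with no filter.

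Of all 1972 falls, 1204 (61.1%) averaged at least 10 CPM in yolk, against 53.8% of all tested transcripts. Only 3 (0.152%) were new in the sense of under 1 CPM in yolk and in each of stages 1 to 3, against 4.00% of all tested, and 765 lay between. Judged on yolk alone, 158 were under 1 CPM there, and 86 had no count in the 4 yolk libraries. The count of new transcripts thus rested on stages 1 to 3. Some of those libraries are shallow, and 1 count of FW_v1_tr_05743 in a stage 1 library of 17288 counts came to 58.5 CPM. With the counts of each early group pooled, an alternative added after seeing the data, 4 of the falls were new (0.203%, against 3.92% of all tested). Pooling does not lift the limit of depth, since 3 counts over all of stage 1 are 5.20 CPM and over yolk 2.66 CPM. A few counts thus still break the limit of 1 CPM. The highest of the group means lay in yolk for 174 of the falls, in stages 1 to 3 for 92, 33 and 104, and in stages 4, 5 and 6 for 563, 399 and 606.

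Most falls held a larger share of the RNA in stages 4 and 5 than in yolk. Of 1971 tested in that comparison, 1381 were higher in stages 4 and 5 (70.1%), 215 were lower (10.9%) and 375 were not called. Of the transcripts also tested between stages 7 and 6, 50.1% were higher and 12.9% lower, so the share of lower calls was close to that of the others. Among those with at least 10 CPM in yolk, 637 of 1204 were higher in stages 4 and 5, 215 lower and 352 not called. Of 2123 such transcripts not called between stages 7 and 6, 464 were higher, 495 lower, 1151 not called and 13 not tested. Of 816 such rises, 135 were higher, 183 lower, 456 not called and 42 not tested. The 765 falls that lay between had low yolk levels, and 742 of them were higher and 0 lower. Over all 1971 falls tested the median log2 difference was 2.60, against 1.26 over all transcripts tested there. Against stages 1 to 3, where 1503 could be tested, 999 were higher in stages 4 and 5 (66.5%) and 193 lower (12.8%). Of all tested there 52.9% were higher and 23.1% lower, and of those also tested between stages 7 and 6, 60.4% and 14.2%. In these comparisons the spike-ins differed too, 25 of 70 against yolk and 21 of 60 against stages 1 to 3. Their largest log2 changes were -4.50 and -2.24. Both comparisons also crossed library sets. No library of yolk or of stages 1 to 3 lay in the set of stages 4 and 5.

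**Figure D5:**
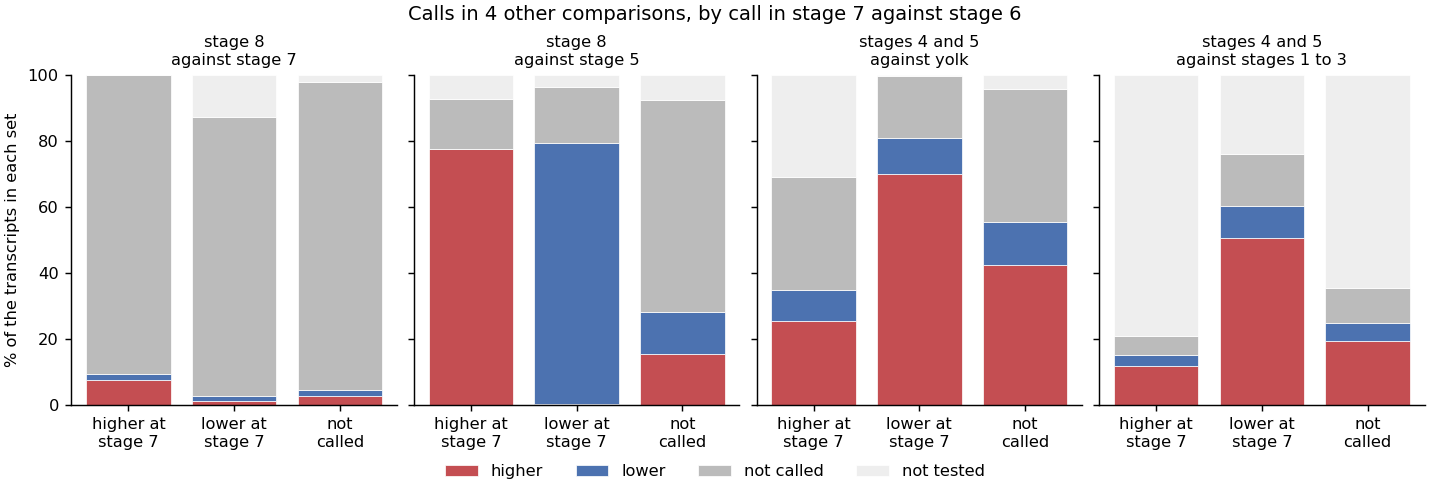
Percentage of the transcripts that were higher, lower or not called in stage 7 against stage 6 (3 bars in each panel) by their call in 4 other comparisons. The falls are lower in stage 8 against stage 5 and mostly higher in stages 4 and 5 against yolk, and few transcripts of any set are called between stages 8 and 7.

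FW_v1_tr_07443 was the fall with the largest fitted excess over yolk. It ran from 72.2 to 413 CPM in stages 4 and 5 (median 191, n = 23). The 4 yolk libraries had no count of it, so it was at least 79.2-fold higher against 3 counts over the yolk group. It passed the filter only through stages 4 and 5 and was chosen by this difference, which describes it and tests nothing. It averaged 15.3 ± 25.4 CPM in stage 1 (SD, n = 6), 42.7 ± 57.6 at stage 2 (n = 29) and 66.8 ± 100.4 at stage 3 (n = 22). In stage 7 it ran from 7.18 to 57.7 CPM (median 23.5) and in stage 6 from 82.3 to 465 CPM (median 155), with no overlap. The log2 difference of stage 7 from stage 6 was -2.90 (SE 0.3, edgeR adjusted p = 1.06e-10). It stayed detectable in stage 8, at 29.1 ± 22.7 CPM (SD, n = 15).

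FW_v1_tr_03850 had no count in yolk either, and fell in 2 steps. It averaged 175 ± 137 CPM in stages 4 and 5 (SD, n = 23), at least 66.0-fold above yolk against 3 counts over the yolk group. Like FW_v1_tr_07443, it was chosen by this difference and passed the filter only through stages 4 and 5. It was at 37.0 ± 19.8 CPM in stage 7 and 141 ± 85.4 CPM in stage 6 (SD, n = 16 each), a log2 difference of -1.99 with SE 0.31 (edgeR, adjusted p = 1.12e-06). All 16 stage 7 libraries lay below the stage 6 median, though the ranges overlapped. In stage 8 it fell again to 12.8 ± 15.3 CPM (n = 15), a log2 difference from stage 7 of -1.42 (SE 0.42, edgeR adjusted p = 0.0296).

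FW_v1_tr_00070 and FW_v1_tr_03132 were the falls that stood furthest below yolk in stages 4 and 5. FW_v1_tr_00070 averaged 1434 ± 1031 CPM in stages 4 and 5 (SD, n = 23) and 38580 ± 35530 CPM in yolk (n = 4). Its log2 difference was -4.97 with SE 0.45. FW_v1_tr_03132 averaged 1689 ± 1180 and 34620 ± 28740 CPM in the same groups, a log2 difference of -4.59 with SE 0.45. For both, every one of the 23 libraries of stages 4 and 5 lay below all 4 of yolk. Both were chosen by this difference, which describes them and tests nothing.

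Their decline went on at stage 7. FW_v1_tr_00070 ran from 3.5 to 201 CPM in stage 7 (median 71.0) and from 278 to 2016 CPM in stage 6 (median 1134), without overlap, a log2 difference of -3.85 with SE 0.36 (edgeR, adjusted p = 1.69e-11). FW_v1_tr_03132 ran from 18.5 to 368 CPM in stage 7 (median 65.4) and from 145 to 2034 CPM in stage 6 (median 984), with overlapping ranges. Its log2 difference was -3.38 (SE 0.37, edgeR adjusted p = 1.4e-09). Neither was called between stages 8 and 7, with log2 differences of -0.07 and -0.41 (edgeR adjusted p = 0.955 and 0.697).

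As a group the falls stayed near their stage 7 level in stage 8, and most were still present. Of the 1972, 1807 averaged at least 10 CPM in stage 8. Their median level was 108 CPM at stage 6, 38.6 at stage 7 and 35.1 at stage 8. Of 1722 falls tested between stages 8 and 7, 20 rose (1.16%) and 34 fell further (1.97%), beside 3.58% and 1.86% of transcripts tested in both comparisons. The falls took 59.7% ± 4.87 of transcript counts in yolk (n = 4), 50.9% ± 10.7 in embryos of stage 4 (n = 10) and 51.6% ± 4.75 in those of stage 5 (n = 13). They took 52.4% ± 7.81 at stage 6, 23.0% ± 1.33 at stage 7 (SD, n = 16 each) and 20.7% ± 1.01 at stage 8 (n = 15).

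Stage 6 embryos were less alike than those of stage 7 in this share. The falls took 19.5% to 24.7% of counts in stage 7. In stage 6 they took 43.5% to 51.1% in 11 libraries and 61.7% to 64.1% in the other 5, with none between. The same 5 libraries, replicates 3, 5, 11, 14 and 15, had 6.53% to 7.68% of counts in the rises, against 11.8% to 17.1% in the other 11. They also had the fewest transcripts at equal depth, 5559 to 7745 against 8221 to 9935, and 101952 to 395289 transcript counts, against 174530 to 1068561.

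Transcripts high in the library labelled protist moved with this difference. They took 0.313% to 1.61% of counts in stage 7, against 3.18% to 4.81% in those 5 stage 6 libraries and 1.29% to 3.48% in the other 11, and 48 of the 210 were tested. Of these 29 fell (60.4%, where 25.6% of all did) and 1 rose (2.08%, where 25.5% did), but a low stage 7 level is part of how the 210 were chosen. Their part in the result was not tested beyond leaving libraries out. Without the 6 stage 6 libraries above 3%, 2157 transcripts rose and 2043 fell in stage 7, of which 1618 and 1652 were among the rises and falls given above. The switched-on and switched-off transcripts then numbered 120 and 3, with the filter set for fewer libraries. Earlier libraries held more of these counts, up to 68.7% in stage 1. Replicates 3 and 10 of stage 4 held 58.3% and 34.8%, and had 26.9% and 37.7% of counts in the falls. Without the stage 4 and 5 libraries above 5%, 1448 falls were higher and 217 lower in stages 4 and 5 than in yolk.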

How the data were processed

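Single embryos were sequenced by CEL-Seq with synthetic spike-ins and a duplex-specific nuclease step, per the labels' protocols. The authors deposited 1 table of read counts, not normalized, for 15124 transcript models, 92 spike-ins and 5 HTSeq counters. CASAVA 1.8, Bowtie2 2.1.0 and HTSeq 0.5.4p3 are named in the submitters' processing notes. Strand setting and molecular identifiers are not given in the sources used here. The genome build named in those notes is a Drosophila one, so no coordinates are given.

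Groups follow the stage labels. Replicate numbers were given in accession order and do not pair libraries. Libraries under 5% of the median transcript total were left out of tests, which removed 1 of stage 1. Transcripts were tested with edgeR 4.0.16 in R 4.3.3 (filterByExpr, TMM, robust quasi-likelihood F test, only the libraries compared), and the same fit was checked on simulated counts. The SE of a log2 change is its size divided by the square root of F. DESeq2 1.42.0 was an alternative. Levels use TMM factors over all 132 libraries. Permutation tests used SciPy 1.17.1. Library sets came from Ward clustering of 26 spike-ins into 4 clusters, with 0.5 added to counts. Transcripts high in the protist library have at least 50 CPM there and 10 times the mean in yolk, stage 7 and stage 8, where 1 count in the protist library is 98.0 CPM and suffices. Models were taken to share reads where a chi-square test of their counts gave p over 0.01.

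The comparisons and level limits were chosen with earlier results of these data known. Named transcripts were, per comparison, at most 2 in each direction, those highest in level (stage 7 against stage 6) or with the largest called difference. A transcript highest of all in the protist library was passed over.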

Additional observations from a re-analysis of the deposited data

Results flagged for a closer look

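Among 21 groups of 4 to 10 libraries checked for a library far from the others, 3 were picked out. Each is 1 count in 1 library with 0 in all others of its group. Such a group always meets the rule, so the rule's usual chance of about 1 group in 20 does not apply. FW_v1_tr_06046 was at 7.52 CPM in 1 of 4 yolk libraries and at 1.28 CPM in 1 of 10 stage 4 libraries. FW_v1_tr_05743 was at 1.28 CPM in 1 of 10 stage 4 libraries. Both are transcripts switched on at stage 7.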

How the results depend on the processing

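No paired analysis was possible because replicate numbers only follow accession order. The size of the switching groups rested on the low-count filter and the level limits. The counts switched on and off were 25 and 5 as reported, 302 and 72 with no filter, 231 and 18 with at least 10 counts in 50% of a stage, 53 and 8 at 20 and 2 CPM, 10 and 2 at 5 and 0.5 CPM, 197 and 27 by detection at equal depth, and 120 and 3 without 6 protist-richer stage 6 libraries. With fewer libraries the filter admits more transcripts.

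Between stages 7 and 6, 3749 rose with no filter, 5524 rose and 153 fell with spike-in totals as library sizes, and 345 rose and 199 fell beyond the largest spike-in change. No filter gave 2740 falls, so that 57.8% of calls were rises, and DESeq2 gave 2902 rises and 1509 falls, 65.8%. With a stricter spike-in filter, 5 spike-ins were higher.

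Between stages 8 and 7, DESeq2 called 275 lower, 56 of them rises and 69 falls of the step before, and no filter gave 345 lower with 69 falls. Against stage 5, DESeq2 called 5 falls higher, and no filter gave 4094 higher and 3452 lower. Against yolk, 280 rises were lower in stages 4 and 5 with DESeq2 and 277 with RLE, and 313 were higher with the 10-count filter. Against stages 1 to 3, no filter gave 6432 higher and 2621 lower, with 964 and 214 of the rises. There the 10-count filter gave 110 rises and 305 falls lower, and a library minimum of 25% of the median total gave 1517 lower, with 151 rises and 317 falls. The cause of these differences was not tested.

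Judged on yolk alone, 158 falls and 2 switched-off transcripts were new, and 1 switched-off transcript was intermediate. At 5 and 0.5 CPM, 488 falls were intermediate. Leaving out 1 yolk library at a time gave 1110 to 1241 falls from yolk, 728 to 859 intermediate and 3 to 3 new, 1278 to 1358 falls higher and 191 to 209 lower in stages 4 and 5, 376 to 438 rises higher and 129 to 188 lower, and 3285 to 3739 higher and 1510 to 1869 lower over all.

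No stage 8 library lay in the library set of stage 6, so no comparison within 1 set was run. Of the other values, 218 counts and summary values stayed within 1.5 times or on their side of the threshold, and 82 values of named transcripts kept direction and call. With 4 yolk libraries, of 77411 to 524665 counts, an absence in yolk is a limit of depth.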
